A study of Homo sapiens with 32 samples.

Results

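The transcribed spacers of the human ribosomal RNA precursor are the 4 stretches of RNA45SN5 that are cut away while the 18S, 5.8S and 28S rRNAs are released from it. On GRCh38, RNA45SN5 lies on the + strand of the unplaced sequence GL000220.1, and every position of it outside the annotated 18S, 5.8S and 28S genes was taken as spacer. These were the 5' external transcribed spacer (5' ETS, GL000220.1:105424-109077, 3654 nt), internal transcribed spacer 1 (ITS1, GL000220.1:110947-112023, 1077 nt), internal transcribed spacer 2 (ITS2, GL000220.1:112181-113347, 1167 nt) and the 3' external transcribed spacer (3' ETS, GL000220.1:118418-118780, 363 nt). The spacers held 6261 of the 13357 positions of RNA45SN5. Of these, 6066 were read in all 32 libraries, beside 309717 positions of the whole series that were. The genome holds many near-identical rDNA copies, and reads of other copies may be counted at this one.

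The libraries were ac4C-seq libraries of Hep3B, a human hepatocellular carcinoma line, made from total RNA that was treated with NaCNBH3 or left as mock and then copied with 2-amino-dATP in the reaction, so that N4-acetylcytidine (ac4C) is read as T. There were 8 genotypes, 2 treatments and 2 replicates, and all cells had received 100 nM dTAGV1 for 24 h, which degrades NAT10 that carries the FKBP tag. Wildtype was the parental line with untagged NAT10. FKBP was the NAT10-FKBP line without transduction, and NAT10(-) was that line transduced with a control plasmid, so that both lacked NAT10 and are called NAT10-lacking here. NAT10-WT was the NAT10-FKBP line with added wild-type NAT10, and it is grouped with Wildtype as NAT10-competent. K290A and E389L were the same line with NAT10 mutated in the RNA helicase domain, and H537A and G641E with NAT10 mutated in the acetyltransferase (GNAT) domain. All transduced cells had been selected with 5 µg/ml Blasticidin for 5 days, whereas Wildtype and FKBP cells had not, so selection and plasmid differ between those and the rest. Mock and NaCNBH3 libraries of one genotype and replicate are fractions of the same RNA, and the labels give the replicate number as a batch.

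The precursor is transcribed by RNA polymerase I in the nucleolus as one RNA that runs from the 5' ETS through 18S, ITS1, 5.8S, ITS2 and 28S to the 3' ETS. The U3 snoRNA and the small subunit processome act on the 5' ETS and ITS1, whose cuts free 18S, while ITS2 is cut and trimmed on the way to 5.8S and 28S. NAT10 is part of this machinery, acetylates cytidines of 18S in a CCG context with its GNAT domain, and carries an RNA helicase domain. An early cut near the start of the 5' ETS separates its first stretch from the rest, and the pieces are then degraded by the exosome and 5'-to-3' exonucleases.

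The spacers are rich in G and C. The GC content was 79.2% in the 5' ETS, 79.9% in ITS1, 83.1% in ITS2 and 84.0% in the 3' ETS. They hold 2520 cytosines, 2466 of them read in all 32 libraries, and 481 of the 2520 (19.1%) are the central C of CCG, the context in which NAT10 acetylates 18S. The first sequence below is the spacer cytosine with the largest C>T rise in NAT10-WT cells. The second holds 3 neighbouring CCG cytosines of ITS2 with smaller rises in those cells, and the last 3 are cytosines read as T in mock and NaCNBH3 libraries alike. Each is printed 5' to 3' on the transcript strand from the GRCh38 sequence of GL000220.1, with the cytosines measured in capitals, and positions count from 1 at the start of each spacer.
5' ETS C2278 (GL000220.1:107687-107715): accggcttcacgtcCgttggtggccccgc
ITS2 C1129, C1133 and C1137 (GL000220.1:113299-113327): ggcgcgattcCgtcCgtcCgtccgccgag
5' ETS C2734 (GL000220.1:108143-108171): cttccgaaccgggtCggcgcgtcccccgg
5' ETS C893 (GL000220.1:106302-106330): tcccgcccccggcgCcccctcctccggtc
ITS2 C327 (GL000220.1:112493-112521): gtccgggttcctccCtcggggggctccct

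The libraries held 1210 to 1732 Mb of base calls, and 400119 to 3797803 positions with at least 30 reads. Both libraries of K290A replicate 1 stood apart with 3735165 to 3797803 positions, against 400119 to 2047586 in the other 30, and results that rest on them are given with and without them. Hep3B was labelled a hepatocellular carcinoma line, and the liver markers ALB, SERPINA1 and APOA1, 3 of 7 on the list, were measured at mean depths of 251 to 4025, 65 to 407 and 66 to 291 reads. None of the 4 markers of blood, vessel and connective tissue cells (PTPRC, HBB, COL1A1 and PECAM1) had enough read positions to be measured. The liver markers AFP, APOB, TTR and FGB failed the same minimum, so a marker that was not measured gives no check of the cell type. NAT10 itself was not among the genes measured here, so it gave no check of the labels. Depth in the files levelled off at 20029 to 20049 reads, and positions at or above 19000 reads in any library were left out of all depth values, 248 of them in the 5' ETS, 14 in ITS1, 96 in ITS2 and none in the 3' ETS. The RNA was partly depleted of rRNA before sequencing. How strongly the depletion probes, the fragmentation and the amount of each spacer RNA set the depth cannot be told apart, so depth is used here only relative to other spacers or genes.

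All spacers were read, but unevenly. ITS2 was the deepest spacer in 6 of the 8 genotypes, and the 5' ETS in NAT10(-) and E389L. The mean depth of ITS2 by genotype ran from 3891 reads per position in H537A to 5266 in NAT10-WT. The 5' ETS reached 2214 in H537A to 5254 in NAT10(-), and ITS1 2007 in H537A to 3723 in NAT10(-). The 3' ETS was far shallower, from 172 to 981 reads in single libraries. NAT10(-) was the genotype with the highest mean depth in the 5' ETS and in ITS1, while NAT10-WT was the highest in ITS2 and in the 3' ETS, where its mean was 685.9 against 563 in NAT10(-) and 297 in FKBP.

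Within each spacer the depth changed by steps at the same places in all genotypes. Depth was averaged in bins of 50 nt and divided by the mean ITS2 depth of the library. In the 5' ETS the highest bin was 1051 to 1100, at 3.06 times the ITS2 mean, and the lowest 2501 to 2550, at 0.0388 times. The first part of the 5' ETS was low, and depth rose 7.32-fold from the bin ending at 450 to the next, with a range over genotypes from 5.72-fold in H537A to 10.1-fold in FKBP. Background knowledge places an early cut of the precursor in this part of the 5' ETS. ITS1 was highest at 151 to 200 (1.64 times the ITS2 mean) and fell to 0.0689 in the next bin, its lowest. ITS2 was highest at 101 to 150 (3.29 times), lowest at 701 to 750 (0.0683) and rose again 5.45-fold at 1051 to 1100. The 3' ETS ran from 0.0211 at 51 to 100 to 0.138 at 251 to 300, so its highest bin lay far below the ITS2 mean.

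**Figure D1:**
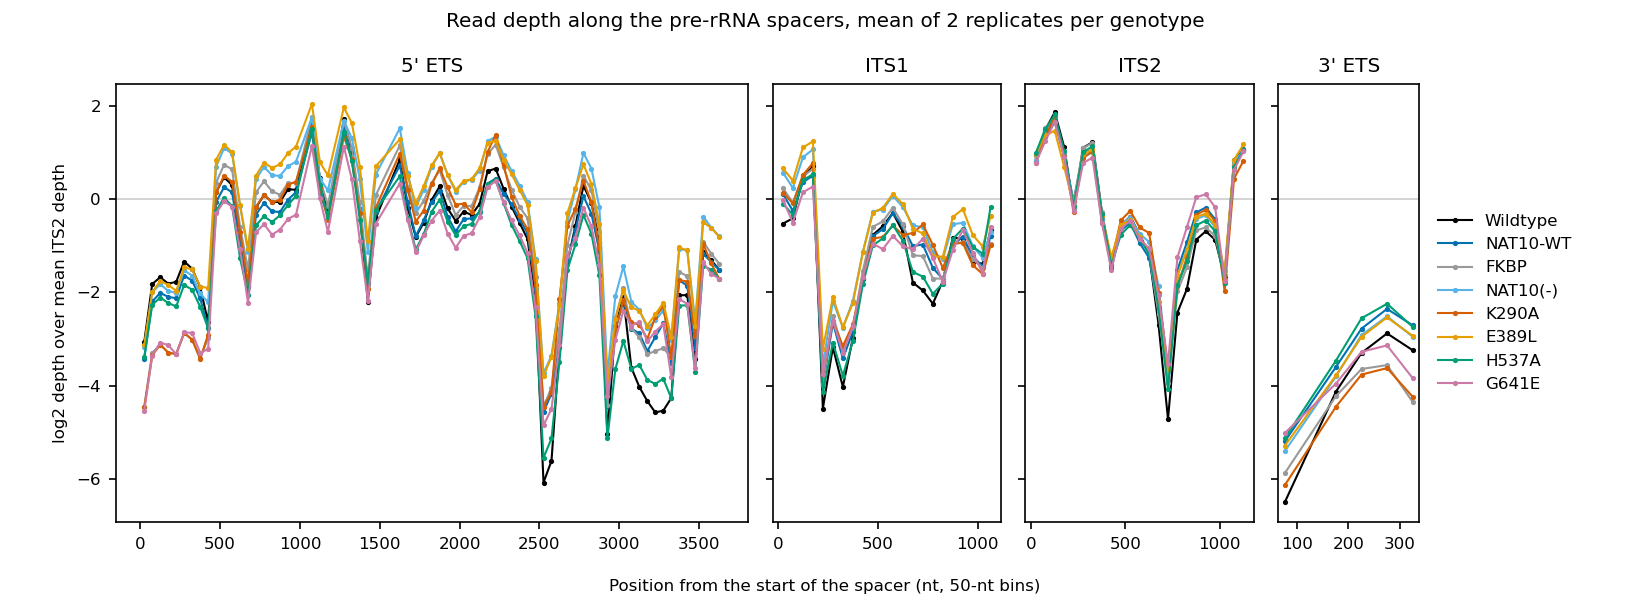
Mean read depth in 50-nt bins along each spacer (x axis, nt from the start of the spacer), as log2 of the ratio to the mean ITS2 depth of the same library (y axis), with one line per genotype for the mean of its 2 replicates; lines join across bins left out for depth. The lines rise and fall together, with the step up past position 450 of the 5' ETS between 5.72- and 10.1-fold in each genotype, and they differ most in the first part of the 5' ETS.

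The question of the depth comparisons was whether the balance of the spacers differs with NAT10 and with its 2 domains. The cuts made and the pieces still present may enter this balance, as may depletion and fragmentation. Their parts were not tested. The 5' ETS was deeper relative to ITS2 in the helicase mutants than in the GNAT mutants. The ratio of 5' ETS to ITS2 mean depth, mock and NaCNBH3 averaged, of replicates 1 and 2 was 0.695 and 0.838 for K290A and 1.00 and 1.23 for E389L. For the GNAT mutants it was 0.564 and 0.577 (H537A) and 0.493 and 0.539 (G641E). All 4 helicase values lay above all 4 GNAT values. The helicase mutants were higher by 0.77 on the log2 scale, or 1.70-fold (group SDs 0.35 and 0.10, n = 4 each; two-sided exact permutation p = 0.0286, the smallest that 4 against 4 allows, and 0.0714 after Benjamini-Hochberg adjustment over the 10 ratio tests). The adjusted p does not pass 0.05. Each group of 4 holds 2 genotypes with 2 replicates each. The permutation, here and in the ratio tests below, treats the 4 as replicates of 1 condition. Its p does not allow for differences between the genotypes of a group. With the replicate number as a block, permuting only within replicates, the exact p was 0.0556, the smallest that the 36 arrangements allow, and the adjusted value 0.111.

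NAT10-lacking cells showed a like difference from NAT10-competent cells. The ratio of 5' ETS to ITS2 was 0.736 and 0.902 in FKBP and 1.02 and 1.09 in NAT10(-). In Wildtype it was 0.71 and 0.693, and in NAT10-WT 0.651 and 0.65. The groups did not overlap, and the NAT10-lacking cells were 1.37-fold higher (exact permutation p = 0.0286, adjusted 0.0714, n = 4 each). E389L and NAT10(-) held the 4 highest of the 16 values and G641E the 2 lowest, while K290A replicate 1 lay among the competent cells.

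ITS1 moved the same way, by less. The ITS1 to ITS2 ratio was 0.534 and 0.636 in K290A and 0.779 and 0.853 in E389L, against 0.512 and 0.52 in H537A and 0.484 and 0.527 in G641E. The groups did not overlap, although K290A replicate 1 and G641E replicate 2 were close, and the helicase mutants were 1.35-fold higher (log2 difference 0.43; exact permutation p = 0.0286, adjusted 0.0714). Between NAT10-lacking cells (0.548 to 0.811) and NAT10-competent cells (0.490 to 0.558) the ratio differed by 0.30 on the log2 scale, with overlapping groups (exact permutation p = 0.0571, adjusted 0.114).

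The 3' ETS did not follow this order. Its ratio to ITS2 ran from 0.0390 to 0.118 in the helicase mutants, from 0.0714 to 0.150 in the GNAT mutants, from 0.0838 to 0.138 in NAT10-competent and from 0.0585 to 0.129 in NAT10-lacking cells. All these ranges overlap, and neither difference passed the test (log2 -0.39 for helicase minus GNAT mutants, exact permutation p = 0.429; 0.39 for competent minus lacking, p = 0.286).

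Inside the 5' ETS, the first 400 nt (early) were compared with the positions after them up to 1600 (middle), and those past 1600 (late) with the same middle stretch. The early part was low relative to the middle in all cells and lower still in NAT10-lacking cells. The early to middle ratio was 0.24 and 0.273 in Wildtype and 0.226 and 0.23 in NAT10-WT, against 0.0733 and 0.0866 in FKBP and 0.158 and 0.175 in NAT10(-). The groups did not overlap, with competent cells 2.10-fold higher (log2 difference 1.07; exact permutation p = 0.0286, adjusted 0.0714), and FKBP was lower than NAT10(-) in both replicates.

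The early part did not separate the mutants. K290A gave 0.0476 and 0.177, E389L 0.186 and 0.119, H537A 0.261 and 0.19, and G641E 0.139 and 0.128, so that the 2 replicates of K290A lay further apart than the means of the mutant groups. The helicase minus GNAT difference was -0.56 on the log2 scale (exact permutation p = 0.314). The lowest value belonged to the K290A replicate whose libraries stood apart in positions read. The late to middle ratio ranged from 0.397 to 0.762 over all 16 and gave log2 differences of 0.12 for helicase minus GNAT mutants (exact permutation p = 0.6) and -0.17 for competent minus lacking cells (p = 0.486).

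**Figure D2:**
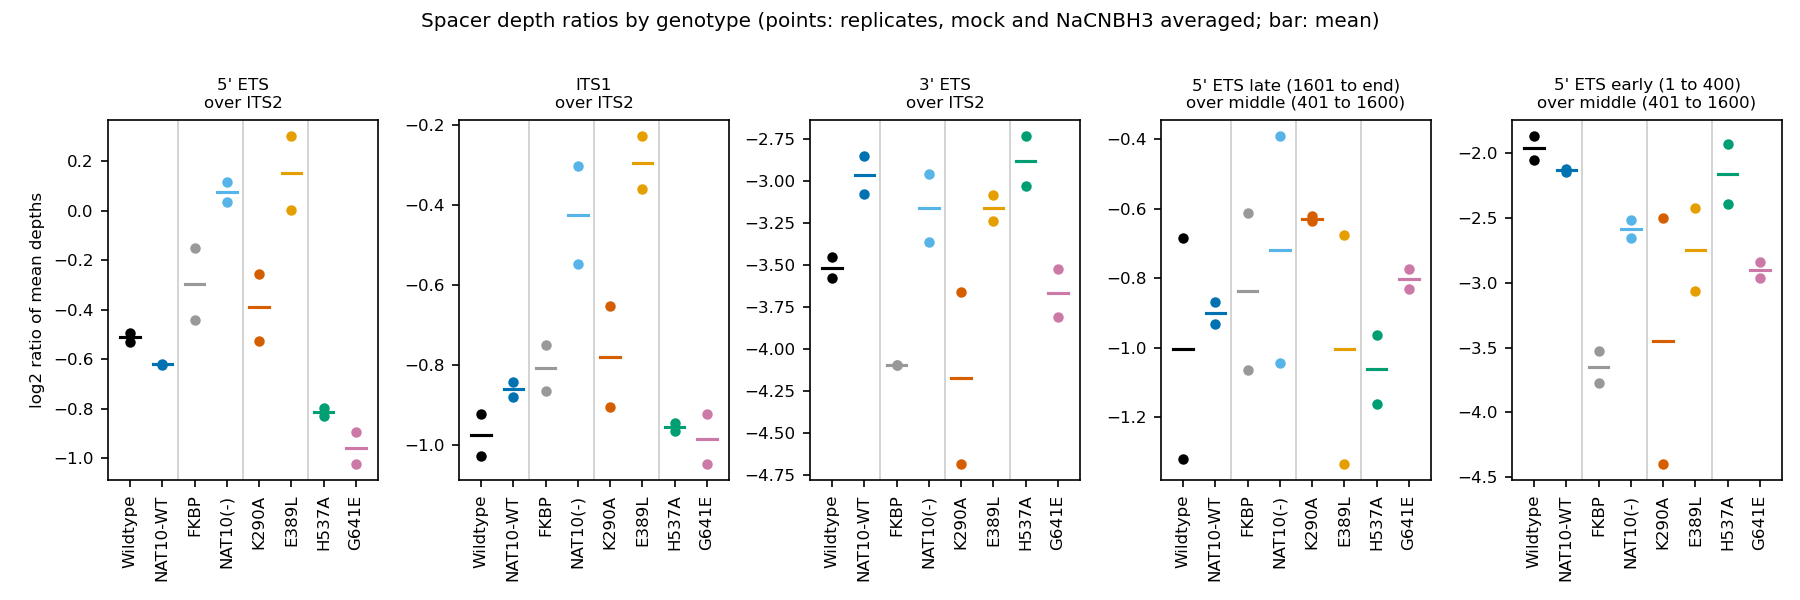
Log2 ratio of mean depths for 5 pairs of spacer stretches (panels, each with its own y axis) in the 8 genotypes, with a point for each replicate (mock and NaCNBH3 averaged) and a bar for the mean of 2. In the first panel the helicase mutants (0.695 to 1.23 as a plain ratio) lie above the GNAT mutants (0.493 to 0.577), and in the last panel the NAT10-competent cells (0.226 to 0.273) lie above the NAT10-lacking cells (0.0733 to 0.175).

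The number of positions read differed along with these groups. It ran from 400119 to 3797803 in the helicase mutants and from 400284 to 752639 in the GNAT mutants, and from 463897 to 731291 in NAT10-competent and from 535384 to 2047586 in NAT10-lacking cells. Its part in the ratios was not tested. Each of the 10 ratio differences kept its direction under all alternatives run, including mock libraries alone, NaCNBH3 libraries alone and each replicate left out, K290A replicate 1 among them.

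Depth relative to the rest of the RNA was then compared in windows of 200 nt. The 33 spacer windows were fitted with 712 genes outside the rDNA in edgeR's quasi-likelihood model. Between helicase and GNAT mutants 9 of the 745 features were called at an adjusted p of 0.05 (percent called 1.21), and 1 of the 33 spacer windows was. This was ITS2 801 to 1000. Its depth, as log2 CPM in the feature table, was 11.18 and 11.34 for K290A, 11.48 and 11.24 for E389L, and for the GNAT mutants 11.73 and 12.08 (H537A) and 12.32 and 12.63 (G641E). All 4 helicase values lay below all 4 GNAT values. The difference was -0.89 on the log2 scale (SE 0.20, edgeR adjusted p = 0.0470), close to the threshold, and it was lost when any replicate but K290A replicate 2 or E389L replicate 2 was left out, with values from -0.97 to -0.80, and in mock (-0.82) or NaCNBH3 (-0.99) libraries alone.

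The ITS2 and 3' ETS windows lay on the lower side in the helicase mutants under every alternative run. All 6 ITS2 windows had negative values against the GNAT mutants (median -0.76), as had all 6 ITS1 windows (median -0.30) and both 3' ETS windows (median -1.06), beside a median of 0.04 over all 745 features. Of the 19 windows of the 5' ETS, 12 were above 0, with a median of 0.04 and a range from -0.32 to 0.22. The level of the 5' ETS and of ITS1 on this scale rested on single K290A replicates and on the scaling. Without K290A replicate 1, whose libraries stood apart, the medians were 0.23 in the 5' ETS (17 of 19 windows above 0), -0.073 in ITS1, -0.65 in ITS2 and -0.72 in the 3' ETS. Without K290A replicate 2 they were -0.25 (1 of 19 above 0), -0.62, -0.97 and -1.66. With the library size taken from the spacer windows alone, which moved the median of all features from 0.04 to 0.40, they were 0.30, -0.016, -0.48 and -0.86. The first 3' ETS window came near the threshold (log2 -1.13, SE 0.28, edgeR adjusted p = 0.0734), at log2 CPM of 6.06 to 7.83 in the helicase and 8.16 to 8.75 in the GNAT mutants. With the replicate block 5 spacer windows were called, all lower, this one among them (log2 -1.16, adjusted p = 0.0227) together with ITS2 801 to 1000 (adjusted p = 0.0151). The calls over all features were not counted in that setting. When the library size was taken from the spacer windows alone, none was called and ITS2 801 to 1000 was at -0.52.

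**Figure D3:**
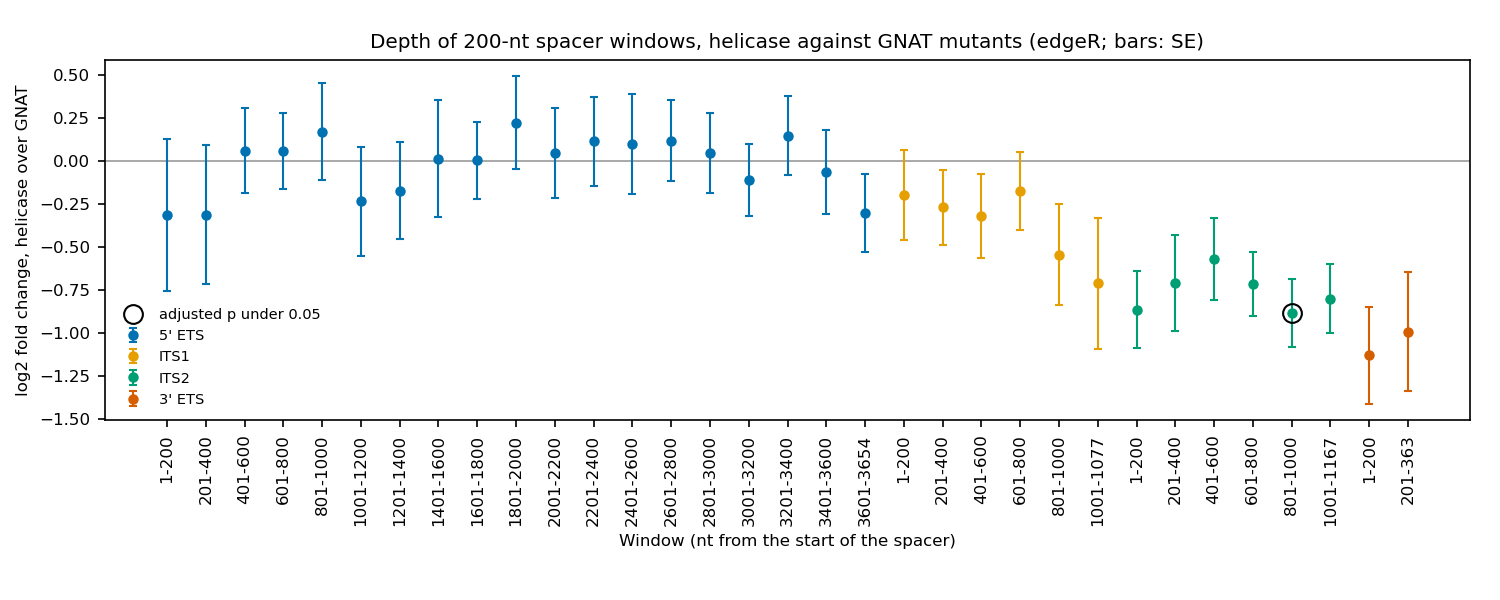
Log2 fold change of read depth, helicase over GNAT mutants, for the 33 spacer windows of 200 nt (x axis, nt from the start of the spacer; bars, SE of the edgeR fit). The 5' ETS windows lie around 0, between -0.32 and 0.22, and the ITS2 and 3' ETS windows lie below it, with ITS2 801 to 1000 at -0.89.

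Against NAT10-WT no spacer window passed in any of the 4 remaining comparisons by edgeR. In NAT10(-) the percent called over all features was 0, and the spacer medians were 0.24 in the 5' ETS (14 of 19 windows above 0), -0.08 in ITS1, -0.49 in ITS2 and -0.71 in the 3' ETS. In the helicase mutants (percent called 0.268) the medians were -0.33, -0.46, -0.81 and -1.29 in the same order, and in Wildtype (percent called 0) -0.26, -0.43, -0.34 and -0.98. In the GNAT mutants (percent called 0) they were -0.29, -0.12, -0.02 and -0.23. The 3' ETS was thus the spacer with the lowest median in 3 of these 4 comparisons, and all 4 share the NAT10-WT libraries. At an unadjusted edgeR p under 0.05 the counts of windows were 1, 7, 7 and 0 of 33 for NAT10(-), Wildtype, the helicase and the GNAT mutants. DESeq2 called 0, 5, 6 and 0 in the same order. Neither was counted over all features, so these counts cannot be set beside a share and are not read as a result. Taken alone, K290A had 4 windows lower than NAT10-WT (percent called 7.25 over all features), and no window was called in FKBP or in any single one of the other 3 mutants.

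RNAs of the processing machinery gave no call. Of 25 genes on a list of pre-rRNA processing factors and snoRNAs, 13 were measured, and none passed in either direction in any of the 5 comparisons by edgeR. The U3 snoRNA gene SNORD3A, whose RNA pairs with the 5' ETS, was at -1.0001 on the log2 scale in helicase against GNAT mutants (SE 0.31, edgeR adjusted p = 0.125). RMRP, the RNA of the ribonuclease that cuts ITS1, was at -0.42 (SE 0.20, adjusted p = 0.267), and FBL, the methyltransferase of box C/D snoRNPs, at -0.14 (SE 0.17, adjusted p = 0.724). The copies of SNORD14 and of SNORA73 share sequence, so their reads may be split between them. The median of the list was -0.12 in this comparison.

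Turning to base conversion, NaCNBH3 raised the C>T share of all 4 spacers by a small and similar amount in all genotypes. The share pools T reads over all reads at the cytosines of a spacer, leaving out the few with a mean mock T share over 5%. In mock libraries it ran from 0.0483% to 0.0601% in the 5' ETS (median 0.0508%), from 0.0480% to 0.0611% in ITS1, from 0.0467% to 0.0593% in ITS2 and from 0.0447% to 0.0843% in the 3' ETS. In NaCNBH3 libraries it ran from 0.0801% to 0.126% (median 0.0969%), from 0.0804% to 0.129%, from 0.0860% to 0.125% and from 0.0949% to 0.174%. In each spacer all 16 NaCNBH3 libraries lay above all 16 mock libraries.

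The rise over the 16 pairs of mock and NaCNBH3 fractions was 0.0495 ± 0.0167 percentage points in the 5' ETS (SD, n = 16), 0.0506 ± 0.0177 in ITS1, 0.0510 ± 0.0152 in ITS2 and 0.0706 ± 0.0322 in the 3' ETS. Each was positive in 16 of 16 pairs (two-sided permutation p = 3.05e-05 over sign flips, the smallest they can give; adjusted 6.10e-05 over 8 tests). On the linear scale the mean share rose 1.96-fold, 1.96-fold, 1.98-fold and 2.21-fold. At the central C of CCG alone the rises were 0.0486, 0.0466, 0.0470 and 0.0732 points, close to those over all cytosines.

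A dependence of the pooled rise on NAT10 was not shown. NAT10-competent pairs minus all other pairs gave 0.00536 points in the 5' ETS (exact permutation p = 0.615), 0.00397 in ITS1 (p = 0.708), 0.00690 in ITS2 (p = 0.454) and -0.00393 in the 3' ETS (p = 0.822), with n = 4 against 12. These differences are all smaller than the SD between pairs, but that SD holds the batch, and the permutation was not blocked by replicate. Within replicate 2 alone they were 0.00977, 0.0108, 0.00984 and 0.0122 points in the same order. The exact permutation p there was 0.321, 0.179, 0.179 and 0.536. Within replicate 1 alone they were 0.000942, -0.00287, 0.00396 and -0.0201 points, with exact permutation p of 0.75, 0.393, 0.393 and 0.143. At the central C of CCG alone, a test chosen after the data had been seen, competent and other pairs rose by 0.0581 and 0.0454 points in the 5' ETS (exact permutation p = 0.277, adjusted 0.370 over 8 tests), by 0.0524 and 0.0447 in ITS1 (p = 0.581, adjusted 0.664), by 0.0605 and 0.0425 in ITS2 (p = 0.0813, adjusted 0.130) and by 0.0668 and 0.0753 in the 3' ETS (p = 0.770). Competent pairs thus had the higher mean in the first 3 spacers, and no difference passed. Without the single position C2278, which is described further on, the 5' ETS values were 0.0491 and 0.0450. The batch made a larger difference. The rise was 0.0350 in replicate 1 and 0.0641 in replicate 2 of the 5' ETS, 0.0349 and 0.0664 in ITS1, 0.0376 and 0.0643 in ITS2, and 0.0506 and 0.0906 in the 3' ETS. Replicate 2 was the higher in 8 of 8 genotypes for the first 3 spacers and in 7 of 8 for the 3' ETS.

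**Figure D4:**
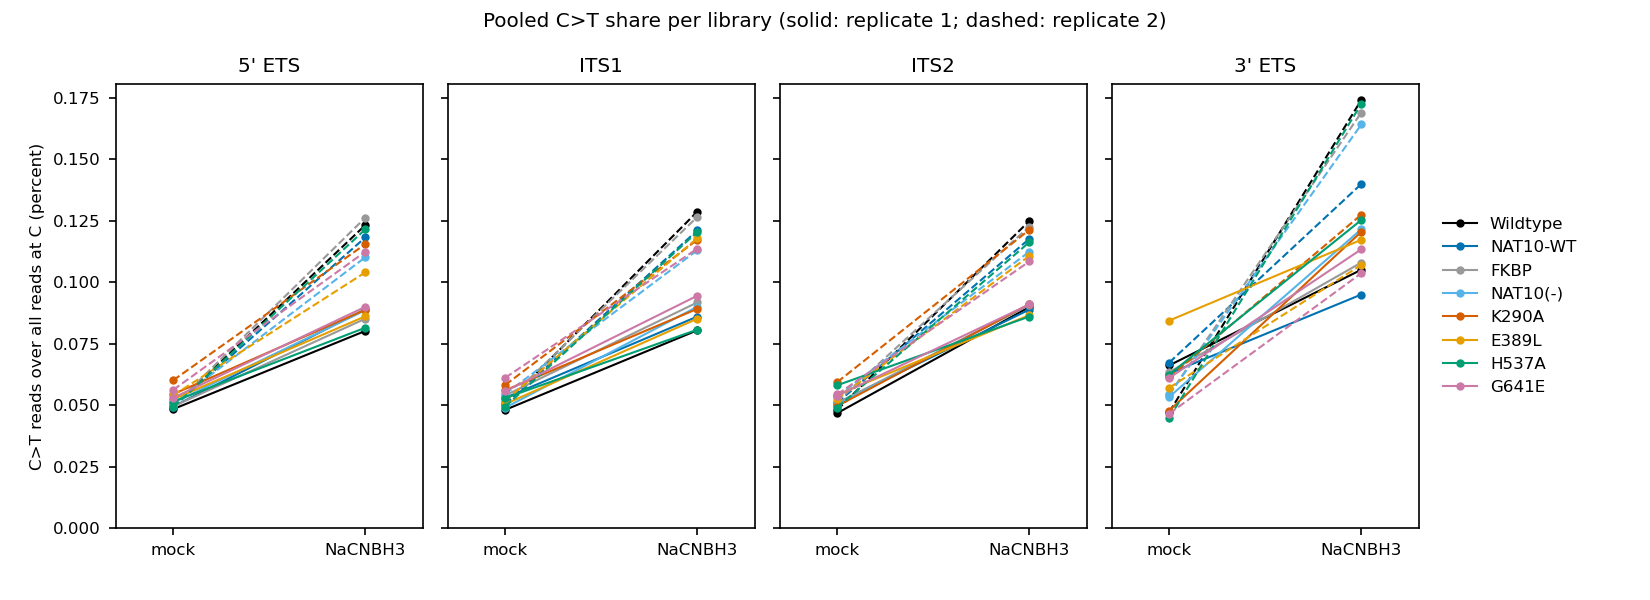
Pooled C>T share (T reads over all reads at cytosines, percent) of each spacer in the mock and NaCNBH3 libraries, with a line joining the 2 fractions of each RNA (colour, genotype; solid, replicate 1; dashed, replicate 2). All 16 lines rise in each panel, by 0.0350 points on average in replicate 1 and 0.0641 in replicate 2 of the 5' ETS.

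In percentage points the spacers rose less than the rest of the transcriptome, although the fold was close. Over all 4, their C>T share rose by 0.0501 ± 0.0162 points, against 0.0619 at cytosines outside the rDNA and 0.0688 in the 18S, 5.8S and 28S genes, which hold acetylated cytosines. The spacers were 0.0118 ± 0.00396 points below the cytosines outside the rDNA, in 16 of 16 pairs (permutation p = 3.05e-05 over sign flips, the smallest they can give; adjusted 4.58e-05 over 6 tests chosen after the data had been seen). They were 0.0187 points below the rRNA genes, again in 16 of 16 pairs. The fold was 1.96 in the spacers, 2.00 outside the rDNA and 1.99 in the rRNA genes.

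Position by position, limma was run on the paired difference of log2((T + 0.5)/(C + 0.5)). It covered 24726 cytosines of the transcriptome with a mean T share over 0.1% in the NaCNBH3 libraries, 918 of them in the spacers. This filter uses the treated libraries and so favours cytosines that are high after NaCNBH3. The counts of rises and falls and the medians below are tilted towards rises by it. In NAT10-competent cells 68 of the 918 spacer cytosines rose with NaCNBH3 and none fell (percent called 2.82 over all cytosines tested). They were 39 of 515 in the 5' ETS, 10 of 162 in ITS1, 17 of 175 in ITS2 and 2 of 66 in the 3' ETS. In the 6 other genotypes together, with more pairs and so more power, 421 rose and none fell (percent called 24), 238 in the 5' ETS, 82 in ITS1, 91 in ITS2 and 10 in the 3' ETS. The spacer medians were 0.95 and 0.83 on the log2 odds scale, above the medians of 0.38 and 0.45 over all cytosines. This gap narrowed with at least 100 reads per position, to 0.98 against 0.76 and 0.88 against 0.76. The count in competent cells fell to between 2 and 11 when any one of the 4 pairs was left out. Over all 24726 cytosines tested the calls fell likewise, from 698 to between 33 and 77. Fewer or more calls in one set of genotypes than in the other do not show that the rises differ.

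One spacer cytosine stood out from this general rise, 5' ETS C2278. By Fisher's exact test on the reads of each replicate, with a mismatch share over 1% and an adjusted p under 0.05 in both replicates, 13 or 14 spacer cytosines could be tested in each genotype. In NAT10-WT 1 of 14 was called, C2278 (percent called 11.4 over all cytosines tested), and in the other 7 genotypes 0 of 13 or 14, with percent called of 8.74 in Wildtype, 4.83 in FKBP, 3.82 in NAT10(-), 3.88 and 3.86 in the helicase mutants K290A and E389L, and 4.56 and 4.16 in the GNAT mutants H537A and G641E. C2278 itself was not among the cytosines tested in those 7 genotypes. Its highest share there was 0.459% (Wildtype), under the 1% minimum, so this test does not compare genotypes at C2278. At an unadjusted Fisher p under 0.05 in both replicates the count was 1 in K290A and 0 in the remaining 6. The same counts over all cytosines tested were not made, so these are not read as a result.

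In NAT10-WT the T share at C2278 was 0.0881% (7 of 7949 reads) and 0.0336% (2 of 5958) in mock, and 2.23% (127 of 5705; exact 95% interval 1.86 to 2.64%) and 3.00% (155 of 5159; 2.56 to 3.51%) after NaCNBH3. In Wildtype it was 0.0485% (2 of 4122) and 0.0822% (6 of 7299) in mock, and 0.288% (13 of 4509; 0.154 to 0.493%) and 0.459% (33 of 7197; 0.316 to 0.643%) after NaCNBH3. Cells with added NAT10 thus read more T here than the parental cells, whose mean of 0.373% was 7.00-fold below the 2.62% ± 0.550 (SD, n = 2) of NAT10-WT.

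In the cells without competent NAT10 the NaCNBH3 shares were lower. They were 0.0456% and 0.115% in FKBP, 0.0508% and 0.167% in NAT10(-). The helicase mutants gave 0.203% and 0.309% (K290A) and 0.0701% and 0.179% (E389L), and the GNAT mutants 0.166% and 0.110% (H537A) and 0.0844% and 0.155% (G641E). K290A replicate 2 lay above Wildtype replicate 1, so the single shares of the groups overlap, within their counting intervals. The mock shares of all 16 libraries were at or below 0.0881%, with 0 of 4468 reads in E389L replicate 2 and 0 of 3454 in H537A replicate 2, which allow shares of up to 0.0671% and 0.0869%.

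The rise from mock to NaCNBH3 at C2278 was 0.240 to 2.97 points in the 4 NAT10-competent pairs (mean 1.43) and -0.0107 to 0.233 in the 12 others (mean 0.0944). The groups did not overlap, but the lowest competent and the highest other value were close. The difference was 1.34 points (two-sided exact permutation p = 0.000549 over 1820 arrangements); the position was known from earlier results of these data, so this p describes the reads and gives no independent support.

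limma placed C2278 alone among the 918 spacer cytosines lower in NAT10(-) than in NAT10-WT after NaCNBH3, by a log2 odds difference of -4.75 (SE 0.78, limma adjusted p = 0.0456; percent called 0.0283), and alone lower in the GNAT mutants (-4.28, SE 0.68, adjusted p = 0.0288; percent called 0.0364). The helicase mutants were lower by a like amount that did not pass (-3.93, SE 0.68, adjusted p = 0.0717; percent called 0.0243), and with the replicate block it passed (adjusted p = 0.0324). Wildtype against NAT10-WT did not pass (-2.83, SE 0.78, adjusted p = 1.00; percent called 0.0121). Helicase and GNAT mutants differed by 0.35 (adjusted p = 0.822; percent called 0), and this sign turned when 5 was added to the counts (-0.071) and with the paired difference from mock (-0.024). Both calls were lost when any single replicate of the genotypes compared was left out and when the difference from mock was tested. At an unadjusted limma p under 0.05, 41, 45, 44, 62 and 33 of the 918 spacer cytosines lay in these comparisons in the order given. Only the 62 of Wildtype exceeds 0.05 of the 918, the share such a threshold passes when nothing differs. The same counts over all cytosines tested were not made, so none of these is read as a further result.

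**Figure D5:**
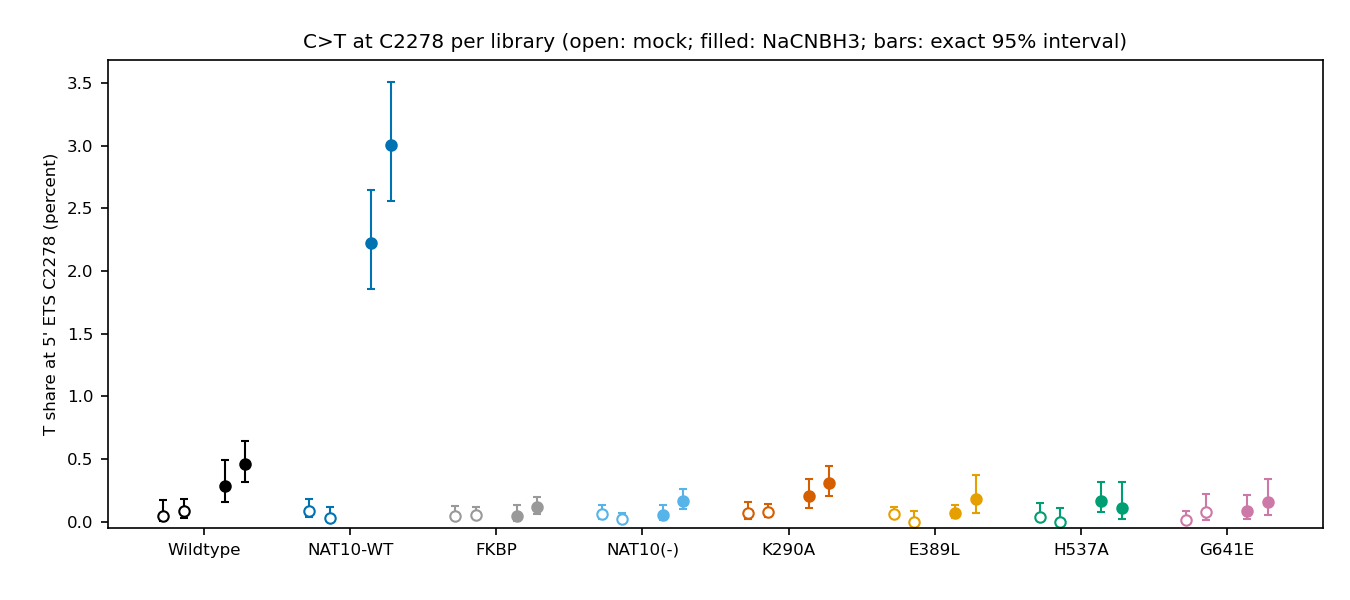
T share at 5' ETS C2278 in each library (y axis, percent of reads; open points, mock; filled points, NaCNBH3; bars, exact 95% interval, which covers counting error only) by genotype. The 2 NaCNBH3 libraries of NAT10-WT are at 2.23 and 3.00%, Wildtype at 0.288 and 0.459%, and every mock library is at or below 0.0881%.

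Below a share of 1% more positions could be tested. With the minimum lowered to 0.1%, Fisher's test called 11 of 173 spacer cytosines in NAT10-WT and 7 of 231 in FKBP. It called 4 of 244 in NAT10(-), 3 of 102 in H537A, 2 of 190 in K290A and 2 of 125 in E389L. The counts were 1 of 136 in G641E and 1 of 150 in Wildtype. Over all cytosines tested, 914 of 7357 were called in NAT10-WT, 773 of 8220 in FKBP and 780 of 8301 in NAT10(-). In H537A, K290A and E389L 380 of 5631, 277 of 7960 and 422 of 6126 were called. In G641E and Wildtype the counts were 372 of 6899 and 828 of 6317. In each genotype the share called was lower in the spacers. The 31 spacer calls fell on 31 different positions, none called in more than 1 genotype. Of the 31, 7 (22.6%) were the central C of CCG, against 19.1% of all spacer cytosines. In NAT10-WT 5 of the 11 were, namely C2278 and ITS2 C905, C1129, C1133 and C1137, and these 4 were named after their values were seen.

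ITS2 C1129, C1133 and C1137 are the 3 cytosines marked in the stretch printed above, one in each of 3 repeats of the same 4 bases near the end of ITS2. At C1133 the NaCNBH3 share was 0.452% and 0.415% in NAT10-WT, 0.106% and 0.171% in Wildtype, and 0.0394% to 0.0992% in the 12 libraries of the other 6 genotypes, so NAT10-WT stood apart. The mock shares at C1133 were 0.00912% to 0.0850%. The rise in NAT10-WT was 0.216 points at C1129, 0.416 at C1133 and 0.190 at C1137, against means of 0.0305, 0.0356 and 0.0530 in the genotypes without competent NAT10. By limma C1133 rose with NaCNBH3 in competent cells (log2 odds 3.20, SE 0.40, adjusted p = 0.000820) and in the other genotypes (1.12, SE 0.23, adjusted p = 0.00302), and its genotype differences did not pass (NAT10(-) against NAT10-WT -2.62, SE 0.68, adjusted p = 0.994). C1133 passed the 0.1% filter of limma at a mean of 0.123%, and only shares of competent cells exceeded 0.1%. It was thus tested through the group where it is high, so these p-values give no independent support. ITS2 C905 rose by 0.178 points in NAT10-WT and 0.0812 in the others, and its highest share, 0.308%, was in an FKBP library.

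The remaining cytosines with large rises in NAT10-WT carried T in mock libraries too. 5' ETS C893 rose by 1.44 points in NAT10-WT from a mock mean over all genotypes of 17.1%, and over all 16 pairs it rose in 8. 5' ETS C1756 rose by 1.404 points from 8.64%, and its share was higher in replicate 1 than in replicate 2 in 16 of 16 comparisons (means 10.6% and 7.40%). 5' ETS C649 and C653 rose by 0.756 and 0.686 points from mock means of 0.883% and 0.792%, and over all pairs each rose in 13 of 16. None of these 4 was called by Fisher's test in both replicates of any genotype.

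Some spacer cytosines were read as T in a steady share of molecules whatever the treatment. The highest mock means were 19.8% at 5' ETS C2734 (17.7 to 22.4% over 16 libraries), 19.5% at C49 (15.1 to 22.9%), 17.1% at C893 (15.8 to 18.01%), 15.1% at C2662 (11.03 to 19.5%) and 14.8% at ITS2 C327 (13.7 to 15.8%). After NaCNBH3 the means were 20.3%, 20.04%, 17.2%, 14.98% and 14.7%, within the mock ranges. C2662 and C2734 moved in opposite directions between the batches. C2734 was higher in replicate 1 in 16 of 16 comparisons (21.1 against 19.002%), and C2662 in 1 of 16 (13.6 against 16.5%).

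C>T was not the only conversion to rise. A>T rose from 0.00816% to 0.0442% in the 5' ETS (5.42-fold, higher in 16 of 16 pairs), from 0.00720% to 0.0405% in ITS1 (5.62-fold, 16 of 16), from 0.00512% to 0.0406% in ITS2 (7.93-fold, 16 of 16) and from 0.00478% to 0.0521% in the 3' ETS (10.9-fold, 12 of 16). The A>T fold was larger than the C>T fold in each spacer, although its share in points was smaller. The 4 spacers rose by 0.0354 points in A>T against 0.0461 outside the rDNA, lower in 16 of 16 pairs by 0.0106 on average (permutation p = 3.05e-05 over sign flips; adjusted 4.58e-05). A>G rose by less, from 0.0587% to 0.0658% in the 5' ETS (1.12-fold, higher in 16 of 16 pairs), from 0.0357% to 0.0450% in ITS1 (1.26-fold, 14 of 16), from 0.0355% to 0.0422% in ITS2 (1.19-fold, 15 of 16) and from 0.0131% to 0.0317% over the 8 adenosines of the 3' ETS that were read (2.41-fold, 12 of 16). Over all spacers the A>G rise was 0.00725 points, higher in 16 of 16 pairs. It differed from that outside the rDNA by -0.00101 points, which did not pass (permutation p = 0.347 over sign flips, adjusted 0.417). Single positions called for substitutions other than C>T were ITS2 346 (C>A, lower, NAT10-WT), ITS1 33 (C>G, lower, FKBP) and 5' ETS 617 (C>G, higher, H537A), each in 1 genotype.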

How the data were processed

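Total RNA of 16 Hep3B samples, each split into a mock and a NaCNBH3 fraction, was sequenced as 32 libraries. The authors deposited per-position counts of A, T, C and G reads on the transcript strand, for positions with at least 30 reads, after trimming with cutadapt 4.2, alignment to GRCh38 with STAR 2.7.9a, UMI-tools 1.1.5 and SAMtools 1.6, per the labels and the study's methods. Groups came from the labels. Segments came from the RefSeq annotation, and 87 other rDNA-like stretches were left out of features and of limma. Depth features had at least 50 positions. Python 3.11.15, R 4.3.3, edgeR 4.0.16 and limma 3.58.1 were used, with DESeq2 1.42.0 as an alternative. Intervals are exact binomial (95%) ones, the floor for 0 counts is 3 counts of the reads, and both cover counting error only.

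Named positions were C2278, every spacer cytosine called for C>T by Fisher's test at the 1% minimum, and the 5 with the highest mock share. The 5 with the largest rise in NAT10-WT with at least 100 reads were named too. ITS2 C905, C1129, C1133 and C1137 were added as CCG cytosines called in NAT10-WT at the 0.1% minimum. The other calls at 0.1%, in NAT10-WT and elsewhere, were counted and their values not described. The spacers, the gene list and the tests were chosen with earlier results of these data known. The replicate number pairs the samples, as the labels call it a batch; over 28 pairs of genotypes the deviations of the 2 replicates correlated with r from -0.186 to 0.755 (median 0.323) over 745 features. On simulated data edgeR recovered 170 of 200 changed features (2-fold, helicase against GNAT mutants, 745 features, 7 false). For limma the recovery was 147 of 200 16-fold and 0 of 200 4-fold changes in NAT10(-) against NAT10-WT, 24726 cytosines. The changed cytosines were drawn only among deeply read ones, and the T reads had no added spread between replicates. Recovery at cytosines with fewer reads was thus not shown. Alternatives covered the normalization, filters, added counts, the replicate block, each fraction alone and each replicate left out.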

Additional observations from a re-analysis of the deposited data

Results flagged for a closer look

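The ratio of late to middle 5' ETS depth had 1 sample apart, among 25 groups checked, of which chance flags about 1 in 20. E389L replicate 2 gave 0.397, below the 3 other helicase mutant values of 0.626 to 0.649, with a gap of 0.906 of the whole range. The C>T rise at 5' ETS C2278 differed between NAT10-competent and other genotypes by 1.34 points. A>T, which is not the conversion the chemistry is read by, reached 0.0442% in the 5' ETS, 0.0405% in ITS1, 0.0406% in ITS2 and 0.0521% in the 3' ETS of NaCNBH3 libraries, above the mock libraries in each spacer.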

How the results depend on the processing

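All 130 alternatives of the spacer ratios kept their direction, as did 45 for the pooled C>T share, where 3 turned; the 8 at CCG alone were chosen after seeing the data. With 1 replicate left out, the unadjusted exact permutation p of the 5' ETS to ITS2 differences ran from 0.0286 to 0.0571. The competent minus other difference turned to -0.00287 points in ITS1 without replicate 2, and to 0.0219 in the 3' ETS with the mean of position shares and 0.0122 without replicate 1. The replicate block is the paired analysis; it gave 5 spacer windows between helicase and GNAT mutants and 1 spacer cytosine (C2278) between helicase mutants and NAT10-WT, and moved no other count of calls by over 1.5 times.

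For spacer windows, DESeq2 gave 6 calls between helicase and GNAT mutants, 6 between helicase mutants and NAT10-WT and 5 between Wildtype and NAT10-WT. Calls over all features were not counted under the alternatives for windows, the replicate block included. Between helicase and GNAT mutants 0 were called with the library size from spacer windows, which by construction removes shifts that the spacers share, and 0 with at least 20 positions per feature, where more features were tested. Leaving out 1 replicate gave 0 to 12 windows in that comparison, 12 without K290A replicate 2 and 0 without any other replicate but E389L replicate 2, and 0 to 9 for helicase mutants against NAT10-WT, 9 without K290A replicate 2. The window ITS1 601 to 800 turned to 0.14 with the library size from spacer windows. Of the 5' ETS windows, 1 to 200 ran from -1.45 to 0.12 with 1 replicate left out, turning without K290A replicate 1, and 1801 to 2000 from -0.23 to 0.51, turning without K290A replicate 2.

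By Fisher's test, a 0.1% share minimum gave 11 calls in NAT10-WT, 7 in FKBP, 4 in NAT10(-) and 3 in H537A. It gave 2 in K290A, 2 in E389L, 1 in G641E and 1 in Wildtype. In each genotype this was a lower share than over all cytosines tested. A minimum of 100 reads gave 1 of 13 in K290A, beside 32 of 564 over all cytosines tested. With a single replicate, which drops the demand for both, 15 to 24 spacer cytosines could be tested. The counts ran from 3 to 4 (Wildtype), 1 to 3 (NAT10-WT), 0 to 1 (FKBP) and 1 to 3 (NAT10(-)). They ran from 1 to 4 (K290A) and 0 to 2 (H537A), and were 1 with either replicate for E389L and for G641E. With replicate 1 left out, calls over all cytosines were 163 of 909 (Wildtype), 129 of 901 (NAT10-WT) and 84 of 1075 (FKBP). They were 59 of 944 (NAT10(-)), 127 of 859 (K290A), 45 of 732 (E389L), 60 of 709 (H537A) and 57 of 772 (G641E). With replicate 2 left out they were 146 of 851, 183 of 895, 124 of 870 and 116 of 840 in the same order. Then came 188 of 1336, 148 of 1025, 132 of 819 and 99 of 819.

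By limma, spacer rises in NAT10-competent cells numbered 149 of 918 with 5 added to the counts, beside 1851 of 24726 over all cytosines tested. With at least 100 reads they were 106 of 825, beside 1059 of 12343. With a mean T share over 1%, where 20 spacer cytosines are left, 0 rose, beside 24 of 416. With 1 pair left out 2 to 11 rose, beside 33 to 77 of 24726. In the other genotypes 1 spacer cytosine rose over 1%, beside 29 of 416. Calls against NAT10-WT were 0 for NAT10(-) and 0 for the GNAT mutants over 1%, with the paired difference from mock and with any 1 replicate left out. For helicase mutants 1 was called with 5 added, beside 7 of 24726 over all cytosines tested, and 1 with at least 100 reads, beside 8 of 12343. At C2278 the helicase minus GNAT difference was -0.071 with 5 added and -0.024 with the paired difference. Where no cause is named, the cause was not tested. Depth limited the 3' ETS most, and 2 replicates per group limited all tests of genotype.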
